A study of Oryza nivara and Oryza rufipogon with 42 samples.

Results

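Genes that were silent in every sampled organ of one Oryza rufipogon plant and active in every sampled organ of another were collected into a set of 254 genes, out of 20134 in the table of digital gene expression (1.26%). Digital gene expression (DGE) counts a short tag cut near the 3' end of each transcript. Its TPM values are tags scaled to a common library total, with no division by gene length, so levels are compared here between libraries and not between genes. A gene was called off in a plant when it lay under 1 TPM in flag leaf, heading panicle and flowering panicle, and on when it reached 10 TPM in all 3 organs. A member is off in at least 1 and on in at least 1 other of the 5 O. rufipogon plants with all 3 organs. The on and off states in these 15 libraries chose the members, so they are described without a test.

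O. rufipogon is the perennial and O. nivara the annual of a pair of closely related Asian wild rices, and cultivated rice was bred from this group. Wild rice accessions are known to differ from each other in gene content and in regulatory DNA, and many plant genes respond to the conditions of growth. A tag-based assay reads 1 short site per transcript, while RNA-seq reads the whole transcript.

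The number in a library title was taken as the plant. Of the 5 O. rufipogon plants, 95 (Myanmar), 199 and 230 (both India) were collected in 2010, and 43 (Thailand) and 47 (India) in 2009. A leaf and a heading panicle of plant 49 and a flowering panicle of plant 50, both of 2009 and from India, are O. rufipogon libraries that the choice of members did not use. The 18 O. nivara libraries came from plants 52 (India), 80 (Nepal), 133 (Myanmar) and 197 (India) in 2010 and from 25 and 26 (Thailand) and 33, 34, 39 and 40 (India) in 2009. All plants were grown from seed in a greenhouse under like conditions, and no agent was applied per the labels. No plant number was sampled in both years, so within a species a difference between years cannot be told apart from one between plants. The labels do not say whether organs of 1 number came from a single individual. RNA-seq values in RPKM, with 1 library per organ, exist for O. rufipogon plant 47 and for O. nivara plants 39 and 40.

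Summed counts ranged from 2677440 to 4173433 in the 18 DGE libraries of 2010 and from 1725036 to 2712054 in the 18 of 2009. Over the 3 libraries of a plant, 3 counts, the most that a count of 0 allows, came to 0.24 to 0.353 TPM in the plants of 2010 and 0.399 to 0.441 TPM in those of 2009. Limits of this kind cover counting error only. Organ labels held up against 4 leaf and 4 floral marker genes. The leaf markers summed to 11540 to 43550 TPM in flag leaves and 214.3 to 4253 TPM in heading panicles, and the floral markers to 4.663 to 42.4 TPM in flag leaves and 381.7 to 2239 TPM in heading panicles. Flowering panicles also carried leaf markers, at 2100 to 12610 TPM, beside floral markers at 434 to 1864 TPM. Members are given by locus number, since the tables hold no gene names. The few symbols used come from general knowledge of rice genes and were not checked against an annotation.

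Most members had 1 off plant, or 1 on plant, with plants in between the limits. Of the 254 genes, 167 were off in exactly 1 plant, 64 in 2, 17 in 3 and 6 in 4. On states were spread much the same way, with 168 genes on in exactly 1 plant, 57 in 2, 20 in 3 and 9 in 4. In 24 genes every one of the 5 plants was either on or off, in 41 genes 1 plant met neither definition, in 86 genes 2 plants and in 103 genes 3 plants, so that these 103 had a single on and a single off plant. The median member averaged 11.46 TPM over the 15 libraries, against 18.45 TPM for the median of all listed genes, and members ranged from 2.774 to 265.3 TPM.

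Plant 199 had the most silent members and plant 43 the fewest. Off members numbered 83 in plant 95, 115 in plant 199, 68 in plant 230, 44 in plant 43 and 60 in plant 47. On members numbered 62, 63, 52, 113 and 88 in the same order. Over all listed genes, 544, 663, 487, 334 and 368 were off in these plants in that order. Of the 370 pairs of a member and a plant that were off, 83 (22.4%) had no tag at all in the plant's 3 libraries, and the largest sum of tags in an off state was 10. Opposite states between 2 plants were met in 28 members (plants 43 and 47) to 76 members (plants 199 and 47).

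**Figure D1:**
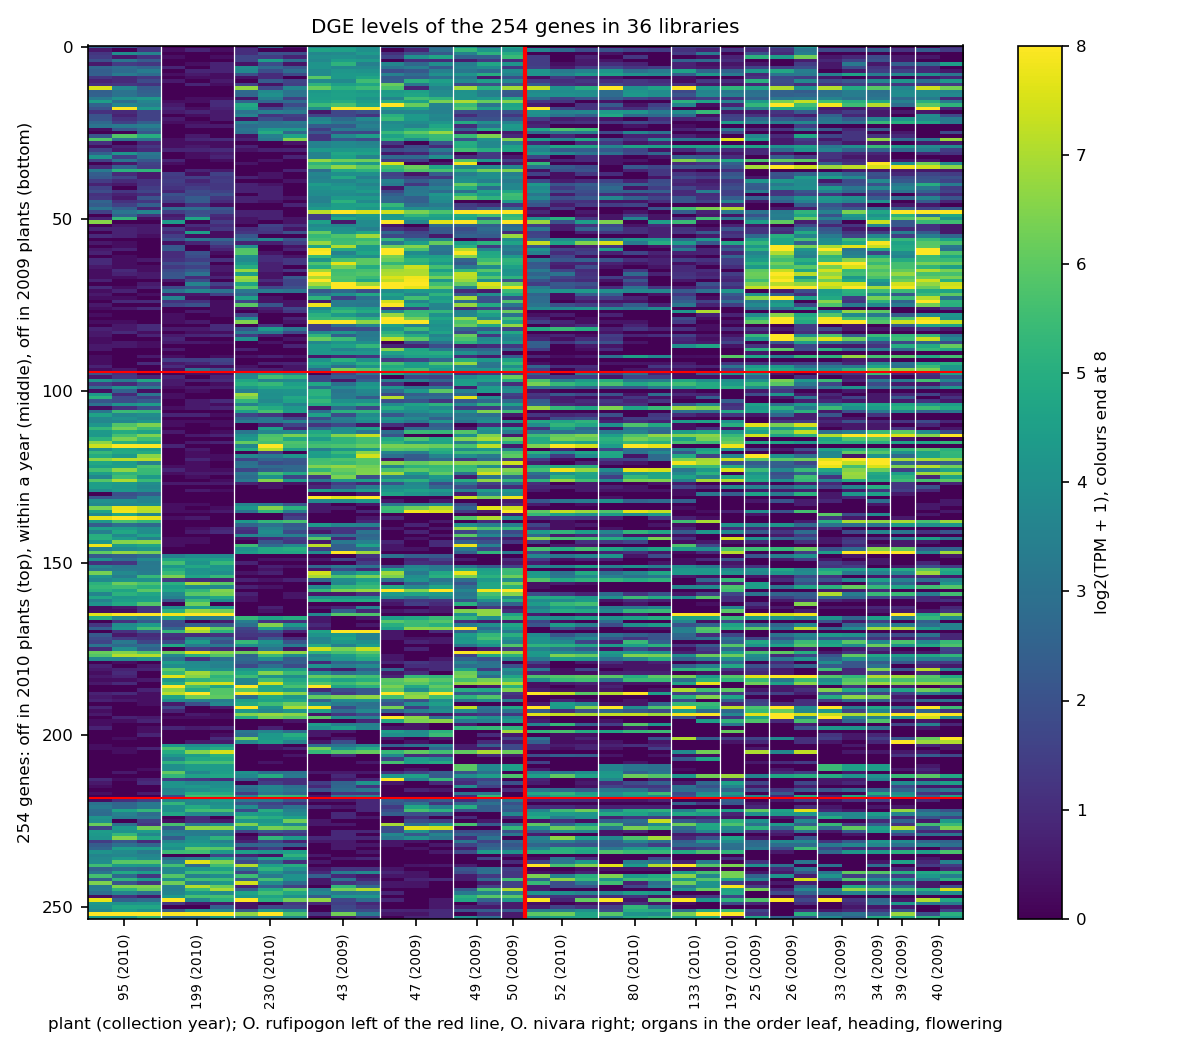
DGE levels of the 254 genes (rows) in the 36 libraries (columns, grouped by plant and collection year), as log2(TPM + 1). Red lines part O. rufipogon (left) from O. nivara (right), and the 95 genes off in 2010 and on in 2009 plants (top), the 124 genes on and off within a year (middle) and the 35 genes on in 2010 and off in 2009 plants (bottom). Organs of a plant carry mostly similar stripes. In the O. rufipogon plants whose on and off states chose the genes, the choice itself favoured this. Plant 230 shows an exception among the 95 genes. In its flag leaf 25 reached 10 TPM, against 9 in its heading panicle and 4 in its flowering panicle.

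In the plants where they were on, members were by definition at 10 TPM or more in all organs. Their median level was 21.91 TPM in flag leaves, 23.58 TPM in heading panicles and 23.74 TPM in flowering panicles. The highest organ exceeded the lowest by a median of 2.04-fold, and in 124 members by less than 2-fold. The highest organ was the flag leaf for 92 members, the heading panicle for 104 and the flowering panicle for 58. Organ levels within an on plant could thus differ, although none was under 10 TPM.

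Genes silent in one plant and on in the other 4 gave the clearest cases. LOC_Os07g29100 had no tag in plant 95. It ranged from 24.83 to 460.4 TPM over the organs of plant 199, from 26.13 to 312.8 TPM in plant 230, from 24.07 to 326.6 TPM in plant 43 and from 27.21 to 80.25 TPM in plant 47. In plant 49 it was at 0 to 0.4978 TPM, with 1 tag in its pair of libraries, while the single library of plant 50 held 33.75 TPM. No O. nivara library exceeded 1.281 TPM. The gene was thus on in 4 plants of the set and in plant 50, and near 0 in plants 95 and 49 and in all O. nivara libraries.

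The neighbouring loci LOC_Os07g07709 and LOC_Os07g07770 were silent in different plants. LOC_Os07g07709 was at 0 to 0.9477 TPM in plant 95 and at 29.42 to 176.0 TPM in plant 199. LOC_Os07g07770 was at 161.5 to 312.3 TPM in plant 95 and at 0 to 0.761 TPM in plant 199. Both genes were on in plants 230, 43 and 47. In O. nivara the first had 6 tags in plant 52, 3 in plant 80 and none in plant 197, and the second 1984, 1418 and 601 tags in these plants. In plants 133, 25, 26, 33, 34, 39 and 40 the order was the other way round, with 169 to 950 tags of LOC_Os07g07709 in each and no tag of LOC_Os07g07770. Every O. nivara plant therefore held one of the pair and nearly lacked the other. In O. rufipogon plant 49 both were present, at 99.54 to 113.0 and 51.07 to 144.4 TPM, and plant 50 held the first at 123.4 TPM and a single tag of the second. Of 5 pairs of members that follow each other in the list of loci, this was the only one with a plant in opposite states, and no pair had the same on and off plants.

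Other members silent in 1 plant differed in how they stood in O. nivara. LOC_Os02g34470 was at 0 to 0.7231 TPM in plant 199 and at 18.5 to 96.45 TPM in plants 95, 230, 43 and 47. It was present throughout O. nivara, between 17.52 and 70.8 TPM. LOC_Os07g20770 had no tag in plant 230 and 24.64 to 280.3 TPM in the other 4, and in O. nivara it was at 44.57 TPM in plant 197 and at most 0.8602 TPM elsewhere. LOC_Os05g05390 was at 0 to 0.7021 TPM in plant 230 and 12.05 to 44.07 TPM in the other 4. In O. nivara it was near 0 in plants 52 and 80, with a single tag over their 6 libraries, and at 7.797 to 68.31 TPM in the other plants.

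LOC_Os07g01960 was off in plant 47 alone, with no tag in its 3 libraries, against 35.31 to 191.7 TPM in the 4 on plants. RNA-seq of plant 47 gave 0 RPKM in all 3 organs. The O. nivara plants fell on both sides. Plants 25, 26, 52, 80 and 197 had 13.37 to 62.38 TPM, and plants 33, 34, 39, 40 and 133 had 0.4239 to 1.666 TPM. No gene was off in plant 43 alone with the other 4 on. Among genes off in plant 43 and in no other, LOC_Os11g02840 and LOC_Os12g22145 had the highest means. LOC_Os11g02840 was on in plant 230 alone. It had no tag in plants 43 and 49 and up to 199.5 TPM in plant 47, where it was neither on nor off. LOC_Os12g22145 had 1 tag in plant 43 and 21.71 to 95.42 TPM in plant 47.

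Of the members, 6 were on in 1 plant and off in the other 4, and 9 were on in 4. LOC_Os08g01520 was at 19.0 to 84.26 TPM in plant 230 and at most 0.9642 TPM in the others. In O. nivara it was high in plants 40 (69.53 to 256.2 TPM) and 133 (4.252 to 129.0 TPM). LOC_Os06g41310 and LOC_Os10g10580 were on in plant 43 alone, at 11.33 to 21.85 and 10.25 to 20.3 TPM. The first was also present in plants 49, 50, 33 and 34, and the second in plants 52, 80 and 197 but at most 0.5211 TPM in plants 49 and 50. In plant 40 the second was at 10.17 TPM in flag leaf and 0.8332 TPM in flowering panicle. The heading panicle of plant 39 held 2.251 TPM of it. LOC_Os07g04250 was on in plant 47 alone, at 27.52 to 93.89 TPM, and RNA-seq of that plant gave 6.56 to 14.93 RPKM.

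Of the 5 plants only 199 was on for LOC_Os06g34290 and LOC_Os07g35770, each with 221 tags and 14.71 to 20.49 TPM. Both were also present in plants 49, 50, 33, 34 and 80. These 2 loci lie on different chromosomes, yet their counts never differed by more than 2 tags in any of the 36 libraries and were equal in 27. Their tags cannot be told apart here, and the pair counts as 1 observation. No other pair of members with 20 or more tags in a library was as close.

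Members just inside the limits were LOC_Os10g04700, with at most 0.7256 TPM in its lowest plant and at least 10.0 TPM in its highest, and LOC_Os11g18690, at 0.7145 and 10.02 TPM. Just outside were LOC_Os12g39440, at 0.4932 and 9.893 TPM, and LOC_Os07g12570, at 0 and 9.83 TPM. Members were spread over all 12 chromosomes. The share of listed genes that were members was 3.10% on chromosome 11 (31 of 1001), 2.03% on chromosome 7 (31 of 1527) and 0.589% on chromosome 5 (10 of 1698).

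Lists of genes with known roles were too small to show whether members were rare or common in them. Over all listed genes 1.26% were members. Of 11 listed diterpene phytoalexin genes, which make antimicrobial compounds of rice, 1 was a member. It was LOC_Os02g36140 (KSL7), a diterpene synthase, at 0.4763 to 0.7398 TPM in plant 95, 14.95 to 63.42 TPM in plant 199 and 17.2 to 19.54 TPM in plant 230. None of 7 cloned resistance genes, 8 pigment genes, 6 domestication and hybrid sterility genes and 4 housekeeping genes in the table was a member.

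Plants 49 and 50 gave a look at the same genes in O. rufipogon libraries that did not enter the choice. In plant 49, 33 members were off (13.0%), against 2.65% of all listed genes, and 90 were on (35.4%), against 42.0%. In the single library of plant 50, 54 members were under 1 TPM (21.3%), against 4.96%, and 128 at 10 TPM or more (50.4%), against 66.8%. Between the 2 plants, 22 members were off in both (8.66%, against 1.35% of all listed genes), 72 on in both (28.3%, against 39.6%) and 12 in opposite states (4.72%, against 0.492%). Plants 49 and 50 are of the same year and country.

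RNA-seq of plant 47 read the same plant with a second assay. Of its 60 members off by DGE, 48 have a row in the RPKM table, and 36 of these lay below 1 RPKM in all 3 organs. Among all listed genes off in that plant this held for 226 of 306, a like share. RPKM of 1 or more in all 3 organs was found for 8 (16.7%), against 20 of 306 (6.54%) among all listed genes off in that plant. Of its 88 members on by DGE, 79 have a row and 69 (87.3%) reached 1 RPKM in all 3 organs, against 97.2% of all listed genes on in that plant. Median RPKM in flag leaf, heading panicle and flowering panicle was 10.9, 12.6 and 12.0 for the on members, and 0, 0.178 and 0.101 for the off members. For all listed genes it was 16.9, 22.6 and 22.5 when on, and 0, 0.0968 and 0.101 when off. The depth of these libraries is unknown, and there is 1 per organ, so no test was made.

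**Figure D2:**
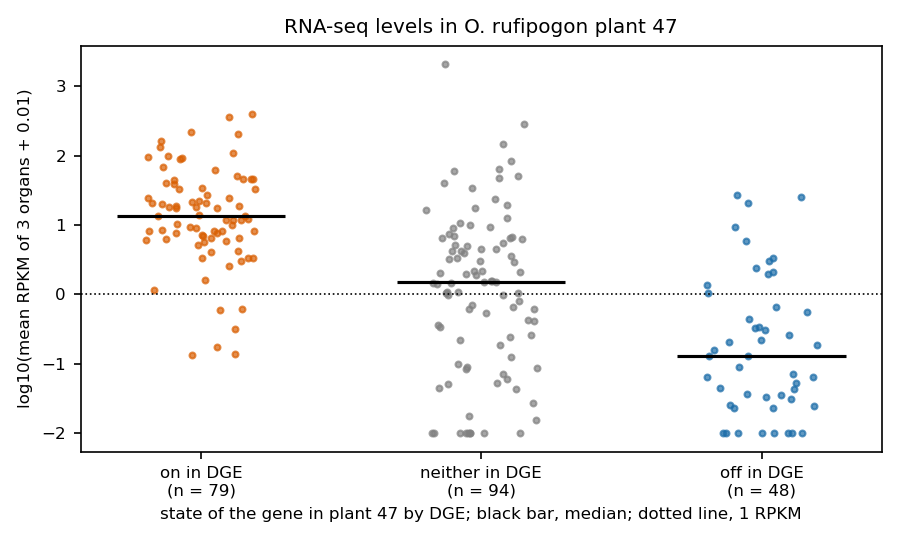
RNA-seq level of the members in O. rufipogon plant 47 (log10 of the mean RPKM of 3 organs + 0.01), by their DGE state in that plant. Each point is a gene, black bars are medians, and the dotted line is 1 RPKM. The 79 on members lie mostly above the line and the 48 off members mostly below it.

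Some members went against their DGE state in RNA-seq of plant 47. LOC_Os03g02420 had 1 tag in plant 47 but 29.10, 26.93 and 25.09 RPKM in flag leaf, heading panicle and flowering panicle. LOC_Os01g38480 had 1 tag but 22.58, 29.01 and 24.16 RPKM, and LOC_Os10g38710 had 3 tags but 50.33, 3.235 and 9.90 RPKM. These genes were off by tag and well covered by RNA-seq. The reverse held for LOC_Os03g38720, LOC_Os03g15200 and LOC_Os10g34880, which had 10.88 to 81.53 TPM in plant 47 and at most 0.3916 RPKM.

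In O. nivara plant 40, with RNA-seq of flag leaf and flowering panicle, 6 of 59 off members (10.2%) reached 1 RPKM in both organs. Among all listed genes off in that plant 84 of 874 did (9.61%). Of its on members 73 of 78 did (93.6%), against 8612 of 8842 (97.4%) of all listed genes on. Members were thus near all genes of the same state. Of all members, 33 (13.0%) have no row in the RPKM table, against 364 of 20134 listed genes (1.81%). They include LOC_Os07g29100, LOC_Os07g07770 and LOC_Os07g20770, which were on in plant 47 by DGE, so their state there was read by tags alone.

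Many of the genes also differed in state among O. nivara plants. In the 6 plants with 2 or 3 organs, 67 members were off in plant 52 (26.4%), 80 in plant 80 (31.5%), 92 in plant 133 (36.2%), 56 in plant 26 (22.0%), 75 in plant 33 (29.5%) and 80 in plant 40 (31.5%). Of all listed genes 2.26, 2.72, 6.21, 4.46, 6.74 and 4.92% were off in these plants in that order. On were 59, 43, 57, 62, 65 and 81 members in that order (23.2, 16.9, 22.4, 24.4, 25.6 and 31.9%), against 44.2, 35.4, 38.1, 34.3, 33.0 and 44.1% of all listed genes. The off share of members thus lay above that of all genes in each of the 6 plants, and the on share below it. A total of 79 members (31.1%) were off in at least 1 of these plants and on in at least 1 other, against 2.43% of all listed genes. Within the plants of 2010 alone this held for 30 members (11.8%), against 0.680%, and within those of 2009 for 22 (8.66%), against 0.700%. Off in at least 1 plant were 161 members (63.4%), against 14.4%, and on in at least 1 were 153 (60.2%), against 60.8%. In all 18 O. nivara libraries 6 members stayed under 1 TPM (2.36%, against 0.104%), 7 (2.76%, against 18.6%) reached 10 TPM in all of them, and 204 (80.3%, against 95.1%) reached it in at least 1.

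**Figure D3:**
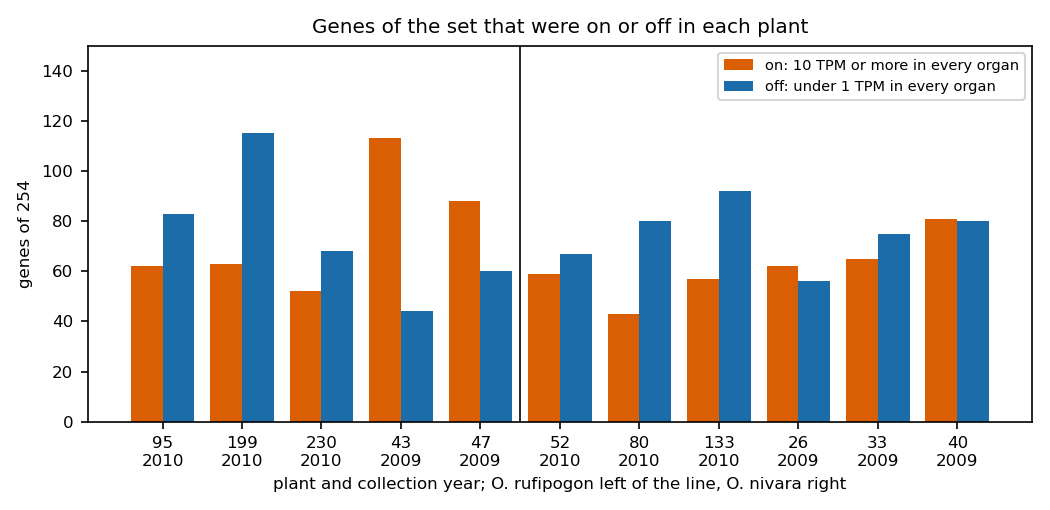
Number of the 254 genes that were on (orange) or off (blue) in each plant with 2 or 3 organs, with O. rufipogon left of the line and O. nivara right. In O. rufipogon the states chose the genes. The O. nivara plants, which were not used, had 43 to 81 genes on and 56 to 92 off.

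The differences between O. nivara plants were tested over all genes with edgeR's quasi-likelihood F test, with organ as a covariate and organs of a plant as its repeats. Of the 254 members, 143 differed between plants (56.3%; 205 passed the filter on low counts), against 23.7% of 19785 genes tested. Between plants of the same year 70 members differed (27.6%), against 5.62%. Members that are low in all O. nivara libraries do not pass the filter, and in these shares they count as not differing. Of the 205 members that passed it, 69.8% differed between plants and 34.1% between plants of the same year. Leaving out plant 133 or plant 26 lowered the count within years to 34 and 43. Organs of 1 plant are not independent plants, so these p-values concern these 6 plants.

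The genes with the lowest p between O. nivara plants also differed between plants of 1 year. LOC_Os09g20024 stood at 128.5 and 44.27 TPM in flag leaf and heading panicle of plant 133, 86.41 and 28.18 TPM in those of plant 33, and 72.49 and 35.83 TPM in flag leaf and flowering panicle of plant 40. It stood at 0 to 1.13 TPM in all libraries of plants 52, 80 and 26. Its plants spanned 8.23 on the log2 scale (edgeR adjusted p = 0.0002712, and 0.0003381 within years). The same gene was at 0, 0 and 0.7398 TPM in O. rufipogon plant 95, and at 18.8 to 96.39 TPM in plants 199 and 230.

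LOC_Os07g44770 was high in plants 133 (221.9 and 127.8 TPM) and 33 (361.6 and 151.6 TPM) and at most 4.586 TPM in plants 52, 80, 26 and 40. Its plants spanned 9.68 on the log2 scale (edgeR adjusted p = 0.0003126, and 0.0006174 within years). Plant 34, with 1 library, held 336.3 TPM. LOC_Os07g07709, described above, had the same adjusted p of 0.0003126 and 0.0007727 within years, and was not called within years without plant 133.

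Over these genes, libraries of different organs but the same plant number were alike. For each library outside the choice of members, log2(TPM + 1) was centred on its group of species and organ. It was then correlated across genes with every library of another organ of the same species. All 16 such libraries with another organ of their own number were most like a library of the same or the adjoining number, 15 of them of the same number. The lowest r with the same number was 0.66 and its median over libraries 0.7894, while the highest r with a number neither their own nor adjoining had a median of 0.4323. Over all other genes 14 of the 16 were most like the same or the adjoining number, 11 of them of the same number. On uncentred values the gap was narrower: 12 of the 16 were most like their own number over members and 2 over all other genes, the median lowest r with the same number was 0.7477, and the median highest r with the other numbers 0.6575. Members are not independent points, libraries of 1 number share year and country, and no p is given.

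Of the remaining libraries, 4 have no partner of their own number but one of the adjoining number from the same country and year. Libraries 25, 34, 39 and 50 were each most like plants 26, 33, 40 and 49 in that order, with r between 0.446 and 0.7895, whereas their highest r with any other number was 0.4508. Over all other genes this held for 2 of the 4. Plants 52 and 80 were also alike, with an r of up to 0.7263, although the labels place them in India and Nepal. The only other library without a partner, of plant 197, reached 0.3213 at most.

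**Figure D4:**
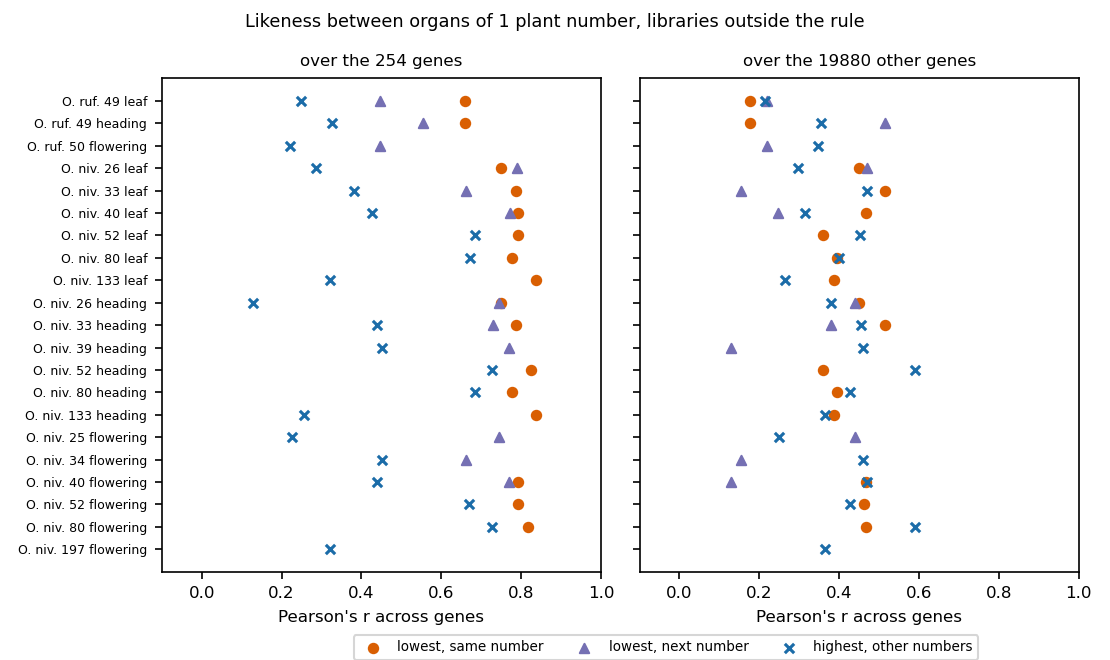
Pearson's r across genes between libraries of different organs of the same species, over the 254 genes (left) and all other genes (right). The 21 libraries shown were not used to choose the members. Circles give the lowest r with the same plant number, triangles the lowest r with the adjoining number and crosses the highest r with any other number. Over the 254 genes circles and triangles lie right of the crosses.

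By collection year, the members fell into 3 classes. In 95 members (37.4%) the off plants were of 2010 and the on plants of 2009, in 35 (13.8%) it was the reverse, and 124 (48.8%) were on and off among plants of the same year. The year of O. nivara plants was tested in each organ as 2010 minus 2009, with 3 libraries of each year. In flag leaves 36 members were called (14.2% of 254), 6 higher and 30 lower in 2010, against 9.00% of all genes tested, 4.37% higher and 4.63% lower. In heading panicles 37 were called (14.6%), 8 higher and 29 lower, against 13.3% of all genes tested, 7.74% higher and 5.58% lower. In flowering panicles 28 were called (11.0%), 6 higher and 22 lower, against 1.50%, 0.725% higher and 0.771% lower. The filter on low counts kept 133, 126 and 142 members in these organs in that order. Shares of members are over all 254, so members not kept count as not called. Shares of all genes are over the genes kept, so the 2 bases differ and the members' shares are the lower for it.

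The members called lower in O. nivara of 2010 were mostly those off in O. rufipogon of 2010. Of the 95, 28 were lower and 1 higher in flag leaves, 26 lower and 1 higher in heading panicles and 19 lower and none higher in flowering panicles. Lower were 29.5, 27.4 and 20% of this class, against 4.63, 5.58 and 0.771% of all genes tested. Shares of a class are over all its genes, tested or not. The filter on low counts kept 58, 47 and 51 of the 95 in that order, and it favours members that are high in one year. Those kept had a median log2 difference of -3.21, -3.39 and -3.56, against -0.04, -0.08 and -0.05 for all genes tested, and without the filter the median of the class was -1.47, -2.72 and -2.10. Of the 35 of the reverse class, 4, 3 and 2 were higher in the same order and none lower. These were 11.4, 8.57 and 5.71%, against 4.37, 7.74 and 0.725% of all genes tested, so the heading panicle share was near that of all genes. Of the 124 on and off within a year, 1, 4 and 4 were higher (0.806, 3.23 and 3.23%) and 2, 3 and 3 lower (1.61, 2.42 and 2.42%). In flag leaf and heading panicle these shares lay below those of all genes tested, and in flowering panicle above them.

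These calls rest on few plants. Without plant 80 no member was called in flag leaves and 14 were in heading panicles. Without plant 52 or 33 there were 18 or 21 in flag leaves, and without plant 39 there were 24 in heading panicles. In flowering panicles no member was called once any of plants 25, 34, 40, 52 or 80 was left out, although 2393 to 4613 genes then had an unadjusted p under 0.05. The libraries of 2010 were also the deeper ones, and the part of depth was not tested.

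Counted per library, 0 to 25 of the 95 genes reached 10 TPM in the O. rufipogon libraries of 2010, and 58 to 80 in those of plants 43 and 47 of 2009. These libraries chose the genes, so that contrast was fixed by the choice. In plants 49 and 50, which did not choose them, 54 to 60 reached it. In O. nivara 11 to 27 reached 10 TPM in the libraries of 2010 and 34 to 50 in those of 2009, and the years did not overlap. Of the 35 genes of the reverse class 13 to 18 reached it in 2010 and 6 to 13 in 2009, and of the 124 on and off within a year 39 to 52 in 2010 and 32 to 50 in 2009, so both classes overlapped between years. Of all listed genes 44.0 to 66.1% reached it in the O. nivara libraries of 2010 and 40.4 to 64.1% in those of 2009. The flag leaf of plant 230 was the O. rufipogon library of 2010 with 25, against 9 and 4 in its heading and flowering panicles. The flag leaf of plant 52 was the O. nivara library with 27.

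**Figure D5:**
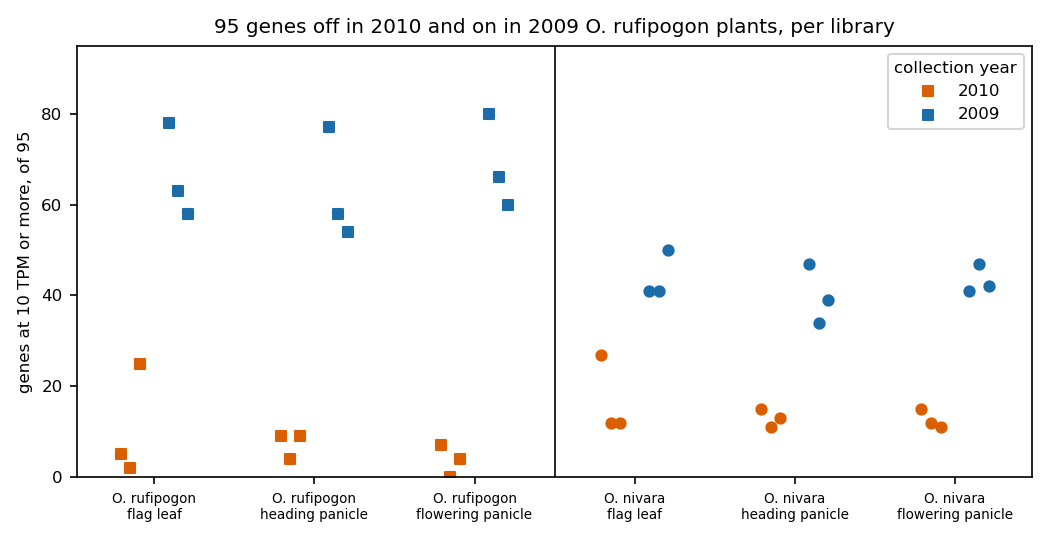
Number of the 95 genes off in 2010 and on in 2009 O. rufipogon plants that reached 10 TPM in each library (vertical axis), by species and organ, with 2010 in orange left of 2009 in blue. Squares are O. rufipogon, where plants 95, 199, 230, 43 and 47 chose the genes, and circles are O. nivara. In O. nivara 11 to 27 genes reached the level in 2010 and 34 to 50 in 2009.

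Members with the lowest p of the year test were abundant in 2009 and nearly absent in 2010. LOC_Os03g53024 was at 0.8313, 1.433 and 0.9501 TPM in O. nivara flag leaves of plants 52, 80 and 133 (2010), against 282.5, 187.5 and 155.2 TPM in those of plants 26, 33 and 40 (2009). Its log2 difference was -7.69 (SE 0.70, edgeR adjusted p = 0.007155). In heading panicles it had 2 tags in the 3 libraries of 2010, against 138, 171 and 97 tags in those of 2009 (adjusted p = 0.006736 by edgeR). The years did not overlap in either organ.

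LOC_Os04g23550 stood at 1.94, 0.3582 and 1.663 TPM in flag leaves of plants 52, 80 and 133, against 1229.0, 1628.0 and 826.3 TPM in those of plants 26, 33 and 40. Its log2 difference was -9.97 (SE 0.92, edgeR adjusted p = 0.007155). In O. rufipogon flag leaves it stood at 0.2382, 0.2537 and 86.71 TPM in plants 95, 199 and 230 (2010), against 467.0 and 1313.0 TPM in plants 43 and 47 and 52.64 TPM in plant 49 (2009). The flag leaf of plant 230 was thus above that of plant 49, while its panicles held a single tag.

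LOC_Os06g04240 was lower in 2010 in all 3 O. nivara organs. In heading panicles it was at 3.917, 3.643 and 3.002 TPM in plants 52, 80 and 133, against 166.2, 146.0 and 217.9 TPM in plants 26, 33 and 39 (log2 -5.59, SE 0.43, edgeR adjusted p = 0.006736). In flowering panicles the log2 difference was -5.60 (SE 0.49, adjusted p = 0.02847). LOC_Os01g60600 fell by 8.08 in flag leaves and by 5.70 in heading panicles on the log2 scale (adjusted p = 0.0106 and 0.006736), and in flowering panicles it was not called (log2 -5.77, adjusted p = 0.06212). LOC_Os03g60570 fell by 6.51, 4.39 and 5.65 in flag leaf, heading and flowering panicle (adjusted p = 0.02198, 0.01772 and 0.02847). LOC_Os02g35329 had 1 tag in the 3 flag leaves of 2010, against 131, 84 and 100 tags in those of 2009 (edgeR adjusted p = 0.007155). The flag leaf calls of LOC_Os06g04240 and LOC_Os03g60570 were lost without any of plants 133, 33, 52 or 80, and the heading panicle call of the second without plant 39 or 80.

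The member with the lowest p in flowering panicles was LOC_Os06g03670 (DREB1C), one of the DREB1 transcription factors, which are known for switching on genes of the cold and dehydration response. In O. nivara it stood at 1.945, 1.436 and 1.078 TPM in flowering panicles of plants 52, 80 and 197 (2010), against 154.4, 118.7 and 185.8 TPM in those of plants 25, 34 and 40 (2009). Its log2 difference was -6.67 (SE 0.53, edgeR adjusted p = 0.02847) there, -5.97 (SE 1.16, adjusted p = 0.02081) in flag leaves and -6.73 (SE 0.80, adjusted p = 0.006736) in heading panicles. The flowering call does not hold without plant 25, 34, 40, 52 or 80, nor does the flag leaf call without plant 33 or 80.

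The other DREB1 loci were looked up after these values were seen, and 3 of the 6 are members. LOC_Os02g45450 (DREB1G) was at 0 to 7.48 TPM in the 9 O. nivara libraries of 2010 and 19.2 to 206 TPM in the 9 of 2009, and was lower in 2010 in all 3 organs (adjusted p = 0.009311 to 0.02929). LOC_Os09g35030 (DREB1A) was at 0.718 to 8.08 TPM in 2010 and 2.26 to 78.0 TPM in 2009. It was lower in flag leaf and flowering panicle (adjusted p = 0.02907 and 0.04585) and was not called in heading panicle (log2 -1.35, SE 0.76, adjusted p = 0.2611). The flag leaf call of DREB1A was lost without any plant but 26 and its flowering call without any of the 6, and the heading panicle call of DREB1G was lost without plant 80. Over the O. nivara libraries, with the 3 organs pooled, the loci that are no members overlapped between the years, as DREB1A did. LOC_Os09g35010 (DREB1B) ranged from 0.358 to 34.2 TPM in 2010 and from 12.4 to 439 TPM in 2009, LOC_Os04g48350 (DREB1E) from 0 to 47.0 and from 3.84 to 50.0 TPM, and LOC_Os01g73770 (DREB1F) from 0 to 1.08 and from 0 to 99.9 TPM. Their medians were still lower in 2010. For 2010 and 2009 they were 2.61 and 71.7 TPM for DREB1B, 3.33 and 10.3 TPM for DREB1E and 0.25 and 5.42 TPM for DREB1F. Those of DREB1A were 1.95 and 13.2 TPM. Between O. nivara plants of 1 year none of the 3 members was called (adjusted p = 0.5406 to 0.7872).

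In O. rufipogon the 3 members were at 0 to 3.69 TPM in every library of 2010 except the flag leaf of plant 230. There DREB1A, DREB1C and DREB1G stood at 61.09, 58.28 and 113.7 TPM. RNA-seq of plant 47, of 2009, gave 24.10 to 540.2 RPKM for DREB1A, 17.22 to 79.31 RPKM for DREB1C and 46.26 to 154.8 RPKM for DREB1G over its organs.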

How the data were processed

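For 36 DGE libraries the authors' tables hold tag counts and TPM; for 6 RNA-seq libraries the authors' table holds RPKM. TPM and counts matched (largest deviation 2.04e-10 counts after scaling by library totals). Between 0.731 and 2.83% of each total falls on genes that are not in the table. Per the submitters' processing notes BWA and edgeR 3.6.8 were used. The genome build is not given in the sources used here, and no sequence is shown. RPKM columns were taken as the only RNA-seq library of their species and organ.

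On and off states were read from the deposited TPM values (limits of 10 and 1 TPM); 254 genes is under the limit of 300, so none was dropped. Tests ran on the deposited counts in R 4.3.3 with edgeR 4.0.16, using TMM scaling, the filterByExpr filter and quasi-likelihood F tests, fitted on all genes with Benjamini-Hochberg adjustment, called at an adjusted p under 0.05 and tested on simulated data. DESeq2 1.42.0, limma 3.58.1, other limits and leaving out each plant were alternatives. Genes named are, for each plant, the highest-mean members off or on in that plant alone, members with the lowest p in each test, those whose RNA-seq goes most against DGE, those at the limits and those in the gene lists. The DREB1 loci, the split by year class, the library likeness and the RNA-seq of plant 40 were added after values were seen. Members and lists were chosen with earlier results of these data known. In the year tests replicates are plants by title number, as far as the labels tell, and p-values measure the spread between these plants. In the tests between O. nivara plants the organs of a plant are its repeats, and p-values measure the spread between organs within plants.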

Additional observations from a re-analysis of the deposited data

Results flagged for a closer look

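Values of the members named for their tests, of the 3 DREB1 members and of KSL7 were checked in O. nivara groups of 6 libraries. The number of members under 1 TPM was checked in each group of species and organ. A library far from the rest of its group was sought, by the gap to its nearest neighbour over the group's range. Of 45 groups 8 had one, all of them in the values of a gene. Chance flags about 1 in 20 groups, but most of these genes were chosen for differences between plants or years, which favours such libraries, so that rate is no yardstick here.

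KSL7 (LOC_Os02g36140) had one in each O. nivara organ. Plant 40 stood out in flag leaf at 138.6 TPM, plant 133 in heading panicle at 40.27 TPM and plant 34 in flowering panicle at 84.3 TPM. LOC_Os07g44770 was at 336.3 TPM in the O. nivara flowering panicle of plant 34, the next highest being 4.166 TPM. LOC_Os07g07709 was at 104.7 TPM in the flag leaf of plant 40. LOC_Os04g23550 was at 516.6 TPM in the heading panicle of plant 33, LOC_Os03g60570 at 322 TPM in the flag leaf of plant 26 and DREB1G (LOC_Os02g45450) at 55.38 TPM in the heading panicle of plant 39. No cause was tested for any of them.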

How the results depend on the processing

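The set depends on its limits. It held 151 genes with off under 0.5 TPM, 388 with off under 2 TPM, 482 with on from 5 TPM and 92 with on from 20 TPM, and 223 genes by TMM-scaled CPM, of which 188 were shared. Leaving out a plant gave 160 (plant 199) to 205 genes. In plant 49, 20 members were under 0.5 TPM and 53 under 2 TPM. At 2 RPKM, 5 of the members off in plant 47 were detected in all organs.

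DESeq2 called more genes than edgeR: 7723 and 2982 genes between O. nivara plants and within years, 2485, 3962 and 1935 genes for the year in flag leaf, heading and flowering panicle, and 51 members in flowering panicle. There limma called 515 genes, and edgeR without the filter on low counts called 126. Of the 95 genes, 12 were lower there without the filter and 30 by DESeq2.

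Leaving out each plant in turn gave 126 to 135 members and 3106 to 4157 genes between plants, and 34 to 60 members and 386 to 783 genes within years. For the year it gave 0 to 44 members and 0 to 1768 genes in flag leaf, 14 to 37 and 340 to 1586 in heading panicle, and 0 to 29 and 0 to 266 in flowering panicle. Of the 95 genes 0 to 29, 11 to 24 and 0 to 16 were then lower in 2010 in that order. For named genes, 501 of 512 values under other settings and 652 of 763 without a plant kept their state of called or not called. Direction was checked only for called year differences, and none of these reversed. The tests between plants have no direction. No paired analysis was possible because the groups compared share no plant number, and the plant is itself the factor tested.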
